A study of Mus musculus with 12 samples.

Results

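The unfolded protein response and endoplasmic reticulum (ER) chaperone genes were examined in mouse bone marrow-derived macrophages. The cells were labelled control or Dicer knockout (Dicer KO), and were studied at rest and after lipopolysaccharide (LPS). The 32 genes were taken by symbol from the 46078 genes in the count files. They comprise 3 stress sensors, 3 transcription factors, 15 chaperones and folding enzymes regarded as ATF6 and XBP1 targets, 7 genes of ER-associated degradation, and 4 targets of ATF4 and CHOP. A filter on low counts kept 13837 of all genes and 30 of the 32, leaving out Derl3 and Chac1. All donors were male C57BL/6 mice lacking ApoE (ApoE-/-), so none of the 4 groups is wild type for that gene. Dicer KO libraries are titled LysMcre/+;Dicerfl/fl;ApoE-/-. In this design Cre is driven from the Lyz2 locus in myeloid cells and excises floxed Dicer1, the gene of the enzyme that cuts microRNA precursors. Control littermates are titled LysMcre/+;Dicer+/+;ApoE-/-, but another label calls them wildtype and the names of their files mark LysM as wt, so the labels do not settle whether the controls carry Cre. Marrow cells were grown for 7 days with L929 supernatant, received diluted ethanol overnight, and then received saline (vehicle) or LPS for 6 h, at 100 ng/ul according to the labels. Each of the 4 groups had 3 libraries. The labels do not say whether these came from separate mice, so each p-value reflects only how far these libraries scattered, which may be technical.

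Proteins that enter the ER are folded by chaperones such as BiP and by enzymes that form disulfide bonds, and proteins that fail to fold are returned to the cytosol for degradation. When unfolded proteins build up, the sensors ATF6, IRE1 and PERK are activated. ATF6, which is cleaved to a transcription factor, and XBP1, whose messenger RNA is spliced by IRE1, raise the transcription of chaperone and degradation genes. PERK phosphorylates the initiation factor eIF2 alpha, which slows translation in general while translation of ATF4 rises, and ATF4 in turn activates Ddit3, the gene of CHOP, and genes of amino acid supply. In macrophages, signalling through the LPS receptor TLR4 is known to engage the IRE1 and XBP1 branch. Gene counts as deposited do not separate spliced from unspliced Xbp1 and do not measure the activity of any of these proteins.

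The libraries held 16172600 to 18886948 counts assigned to genes. Levels below are CPM, that is, counts scaled to a common library size, adjusted by edgeR's trimmed mean of M values (TMM). With TMM a gene that moves like the bulk of genes shows no difference. Errors are the SD over n = 3 libraries. Dicer1 was 43.7 ± 1.44 CPM in control and 19.7 ± 0.369 in Dicer KO with vehicle, and 49.4 ± 2.84 and 15.5 ± 1.10 with LPS. Some Dicer1 RNA thus remained in Dicer KO, and gene counts do not show how complete the deletion was. Lyz2, the locus that carries Cre, was 5714 ± 335 CPM in control and 14.1 ± 1.49 in Dicer KO with vehicle, 405-fold lower, and 215-fold lower with LPS. A LysMcre/+ cell keeps an intact Lyz2 allele, so these levels go against titles that give LysMcre/+ to both groups. Apoe, given as ApoE-/- in all titles, was 17.9 ± 1.91 CPM in control and 5.61 ± 0.610 in Dicer KO with vehicle. With LPS, Apoe was 4.24 ± 0.622 CPM in control and 1.20 ± 0.270 in Dicer KO. Its level was thus 3.19-fold lower in Dicer KO with vehicle and 3.52-fold lower with LPS. The groups are called by their labels throughout, and they differ at Lyz2 and Apoe as well as at Dicer1. All 8 macrophage markers passed the filter, and their summed level was 12334 to 13603 CPM in control vehicle and 6712 to 7608 in Dicer KO vehicle. Without Lyz2, the other 7 summed to 6964 to 7669 and 6699.7 to 7592 CPM, which overlap. With LPS these 7 summed to 8551 to 8719 CPM in control and 9213 to 9397 in Dicer KO, which do not overlap. They did not move alike: with vehicle, Fcgr1 was 230 ± 4.94 CPM in control and 769 ± 127 in Dicer KO, and Itgam 969 ± 83.0 and 727 ± 58.8. The 7 dendritic cell markers, of which 3 passed, summed to 15.8 to 19.1 CPM in control vehicle and 59.2 to 63.6 in Dicer KO vehicle, and with LPS to 16.7 to 20.0 and 61.0 to 61.5. With vehicle, Itgax alone was 16 ± 1.66 CPM in control and 57.6 ± 3.09 in Dicer KO, while the other 6 genes summed to at most 4.42 CPM with vehicle and 17.8 with LPS. The 9 neutrophil markers, of which 8 passed, summed to 205 to 270.1 CPM over the 6 vehicle libraries and to 795 to 941 over the 6 LPS libraries, of which Csf3r was 686 ± 11.2 CPM in control and 785 ± 16.5 in Dicer KO. Stromal markers, 1 of 5 passed, summed to at most 1.25 CPM with vehicle and to between 22.7 and 36.6 with LPS, where Pdgfrb was 23.2 ± 1.17 CPM in control and 34.5 ± 1.81 in Dicer KO and the other 4 genes summed to at most 1.13. B and plasma cell markers (1 of 8 passed) stayed at or below 5.22 CPM with Mzb1 at 0, T and NK cell markers (1 of 7) at or below 10.5 with Ncr1 at 0, and none of the 5 mast cell and basophil markers passed, with Fcer1a and Tpsb2 at 0. These markers move with the groups, and their part in the results below was not tested. Counts of a replicate pair differed more (chi-square per degree of freedom 7.88 to 13.2) where the pair held replicate 3 of control vehicle or replicate 2 of Dicer KO vehicle than elsewhere (1.30 to 4.78).

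The promoters of the genes were searched for exact matches to the elements named after this response. RefSeq promoter windows (GRCm38.p6, from 250 bases before the transcript start to 50 after it) were found for 28 of the 32 genes, in 29 windows. Both strands were searched for the ER stress response element ERSE (CCAAT and CCACG with 9 bases of any kind between them), the shorter ERSE-II (ATTGG and CCACG with 1 base between them), the core of the unfolded protein response element (TGACGTGG) and the ATF4-binding CARE (TGATGNAA). ERSE was present in 9 of the 29 windows and in 0.119% of all 32851 windows, and ERSE-II in 2 of 29 and in 0.0365% of all. CARE was present in 4 of 29 and in 3.97% of all, and the TGACGTGG core in 0 of 29 and in 0.676% of all. Both the genes and the motifs were chosen as parts of this response, so these shares were not tested. The matches are shown 5′ to 3′ on the strand that reads as the motif, with the fixed letters of the motif in capitals, because the genes that hold them are compared with the others below.
Hspa5 ERSE: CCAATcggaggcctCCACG
Hsp90b1 far ERSE: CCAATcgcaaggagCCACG
Hsp90b1 near ERSE: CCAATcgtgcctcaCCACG
Calr ERSE: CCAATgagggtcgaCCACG
Canx ERSE: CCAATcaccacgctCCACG
Pdia6 ERSE: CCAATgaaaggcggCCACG
Dnajc3 ERSE: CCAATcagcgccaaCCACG
Creld2 ERSE: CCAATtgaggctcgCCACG
Syvn1 ERSE: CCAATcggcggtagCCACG
Derl3 ERSE: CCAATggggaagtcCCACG
Dnajb11 ERSE-II: ATTGGcCCACG
Herpud1 ERSE-II: ATTGGgCCACG
Herpud1 CARE: TGATGcAA
Chac1 CARE: TGATGcAA
Trib3 CARE: TGATGtAA
Asns CARE: TGATGaAA

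The ERSE of Hspa5 lay 65 to 47 bases before the start, at chr2:34772025-34772043, and that of Syvn1 44 to 26 bases before it. In Calr the match lay 162 to 144 bases before the start, and Hsp90b1 held a pair, at 212 to 194 and 107 to 89 bases before it. Herpud1 had both an ERSE-II (52 to 42 bases before the start) and a CARE (112 to 105 bases before it). Motif letters that match are a description of sequence and not evidence of binding. A gene without an exact match may still hold a related element, in its window or outside it. The window of Pdia3, for example, holds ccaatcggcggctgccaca, which departs from ERSE in its last letter alone. Herpud1 and Syvn1 both act in ER-associated degradation, both hold an ERSE-type match, and differed in opposite directions between genotypes in the results that follow. For that reason their 250 bases before the start are shown on the gene strand, which is the plus strand for both, with the matches in capitals (the CARE of Herpud1 reads on the minus strand and so appears here as its reverse complement). Herpud1 is at chr8:94386179-94386428 and Syvn1 at chr19:6046326-6046575.
Herpud1: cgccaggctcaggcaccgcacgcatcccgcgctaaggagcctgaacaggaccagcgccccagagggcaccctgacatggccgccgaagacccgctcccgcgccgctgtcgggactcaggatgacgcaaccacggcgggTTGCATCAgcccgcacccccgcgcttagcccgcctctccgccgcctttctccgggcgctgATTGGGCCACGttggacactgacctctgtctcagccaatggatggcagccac
Syvn1: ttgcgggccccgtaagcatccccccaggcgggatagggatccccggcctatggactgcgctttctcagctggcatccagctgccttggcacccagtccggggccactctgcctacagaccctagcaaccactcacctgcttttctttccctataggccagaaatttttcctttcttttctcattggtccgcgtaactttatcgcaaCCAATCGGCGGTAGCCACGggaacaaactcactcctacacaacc

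**Figure D1:**
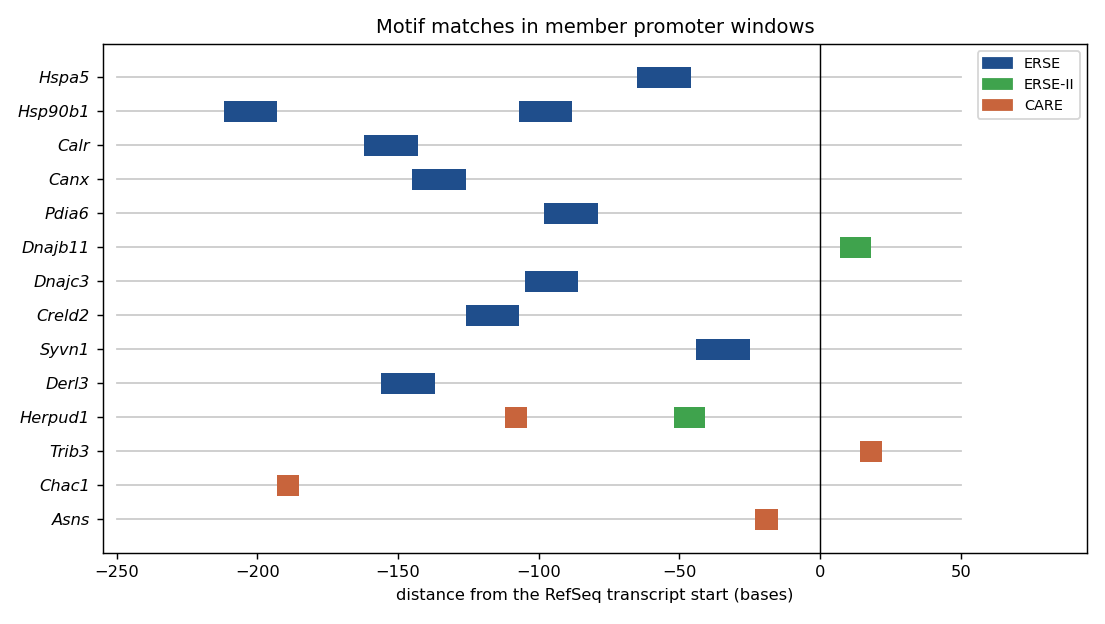
Position of each match relative to the RefSeq transcript start (horizontal axis, bases) in the 14 genes with at least 1 match, with ERSE in blue, ERSE-II in green and CARE in orange. Only Dnajb11 and Trib3 have their match after the start.

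Per kilobase of exon, the most abundant of the genes in control vehicle were Calr, a calcium-binding lectin chaperone, at 179 CPM per kb, and P4hb, a protein disulfide isomerase, at 166. Hspa5, which encodes BiP, followed at 128, the disulfide isomerase Pdia3 at 127 and the HSP90 chaperone Hsp90b1 at 96.8. With LPS, Hspa5 took first place in both genotypes, at 289.7 CPM per kb in control and 349.9 in Dicer KO. The lowest of the tested genes per kilobase in control vehicle were the pseudokinase Trib3 at 1.96 and the asparagine synthetase Asns at 1.85. Derl3 had 1 to 11 counts per library and Chac1 0 to 19, too few to compare. Replicates were close: the median coefficient of variation of the 30 tested genes was 3.29 to 6.27% by group, and that of all tested genes 7.15 to 7.64%.

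At rest, Dicer KO macrophages had more messenger RNA of most ER chaperones than control macrophages. In edgeR's quasi-likelihood test, with p-values adjusted over all 13837 genes and a call at an adjusted p under 0.05, 17 of the 30 genes were higher in Dicer KO and 4 were lower. Of all genes tested, 46.2% were called in this comparison, 25.0% higher and 21.2% lower. The median log2 difference was 0.25 over the 30 genes and 0.01 over all genes. The split became 17 higher and 7 lower with upper-quartile factors, and 14 higher and 8 lower with unscaled library totals, which shift the median gene by −0.13. The libraries of the 2 genotypes did not overlap for 20 genes that were higher and 4 that were lower, beside 28.4% and 25.7% of all genes.

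Of the 15 chaperones and folding enzymes, 11 were higher, none were lower and 4 were not called, with a median of 0.35. Calr was 488, 496 and 567 CPM in the 3 control libraries and 844, 891 and 820 in the Dicer KO libraries. All Dicer KO libraries were above all control libraries, a log2 difference of 0.72 ± 0.07 (SE, adjusted p = 4.29e-07). Hspa5 (ENSMUSG00000026864, chr2:34771970-34777547) was 551, 525 and 551 CPM in control and 884, 864 and 862 in Dicer KO. The groups were again apart, by 0.68 ± 0.05 (adjusted p = 1.32e-08), a 1.60-fold difference. In bulk RNA, a change in the number of cells of a type and a change in RNA per cell cannot be told apart. Sdf2l1, a component of ER chaperone complexes, was higher by 0.57 ± 0.10, and Dnajb11, a BiP co-chaperone, by 0.56 ± 0.06. Creld2 and the disulfide isomerase Pdia6 were higher by 0.52 ± 0.06 and 0.50 ± 0.05. The remaining 5 called chaperones differed less, from 0.24 for Hyou1, a BiP nucleotide exchange factor, to 0.39 for Pdia3, with Hsp90b1 (0.25), Pdia4 (0.31) and the secreted factor Manf (0.35) between them. Of the exon length of Hsp90b1, 10.3% is overlapped on the opposite strand, and exons of Gm15344 and Gm25745 overlap it on its own strand. With library totals the differences of Hsp90b1 (0.13, adjusted p = 0.0774) and Hyou1 (0.11, adjusted p = 0.128) were no longer called. The 4 not called were the lectin chaperone Canx (0.15), the co-chaperones Dnajc3 (0.11) and Dnajb9 (−0.10), and P4hb (−0.11). Leaving out a single library changed 3 of these: P4hb was called lower without replicate 3 of control vehicle (adjusted p = 0.00361), as was Dnajb9 (0.0342), and Canx was called higher without replicate 1 of Dicer KO LPS (0.0184) or 3 (0.046).

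The degradation genes divided. Herpud1, which encodes a membrane protein that organizes the degradation complex (ENSMUSG00000031770, chr8:94386438-94395377), was 45.6, 41.4 and 37.5 CPM in control and 22.2, 21.6 and 21.5 in Dicer KO. Its level in Dicer KO was 1.91-fold lower with no overlap (−0.93 ± 0.08, adjusted p = 3.3e-08). Syvn1, the ubiquitin ligase of the same complex (ENSMUSG00000024807, chr19:6046576-6053712), was 48.2, 49.7 and 50.9 CPM in control and 68.3, 65.6 and 65.5 in Dicer KO. That was a rise of 0.42 ± 0.05 (adjusted p = 2.1e-06), in the opposite direction to Herpud1. The mannosidase-like Edem1 (0.41), the ligase adaptor Sel1l (0.35) and the channel subunit Derl1 (0.22, or 0.10 and not called with library totals) were higher as well, and Derl2 was 50.9 ± 2.10 and 50.7 ± 0.943 CPM.

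Among the sensors, Atf6 was higher in Dicer KO by 0.41 ± 0.05, with 132, 137 and 142 CPM in control and 180, 182 and 185 in Dicer KO. Ern1, the gene of IRE1, was lower by 0.50 on the log2 scale (−0.50 ± 0.10, adjusted p = 0.00123), with 77.8, 72.4 and 55.4 CPM in control and 50.4, 44.4 and 50.6 in Dicer KO. Eif2ak3, the gene of PERK, was not called (−0.07 ± 0.06). Of the transcription factors, Ddit3 stood out, with 21, 21.7 and 24.9 CPM in control and 40.0, 45.3 and 42.4 in Dicer KO. Ddit3 was thus 1.89-fold higher without overlap (0.92 ± 0.07, adjusted p = 1.39e-08), the largest rise of the 30 genes. Exons on the opposite strand overlap 4.73% of its exon length, and the strand setting of the counting is not given in the sources used here. Another annotated gene of the same name also overlaps the exons of Ddit3 on its own strand. Xbp1 (−0.07 ± 0.06) and Atf4 (0.20 ± 0.09, adjusted p = 0.0676) were not called, but Atf4 was called higher without replicate 3 of control vehicle (adjusted p = 0.0365), replicate 3 of control LPS (0.0463) or replicate 1 of Dicer KO LPS (0.0168), and Xbp1 lower without replicate 3 of control vehicle (0.0482).

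None of the 3 tested ATF4 and CHOP targets was called higher. Trib3, an inhibitor of ATF4 and CHOP activity, was 3.88, 3.75 and 4.85 CPM in control and 2.65, 2.32 and 2.99 in Dicer KO, a difference of −0.64 ± 0.16 (adjusted p = 0.00328). Ppp1r15a, the gene of the GADD34 subunit that directs dephosphorylation of eIF2 alpha, was lower by 0.19 on the log2 scale (−0.19 ± 0.07, adjusted p = 0.0258). That call was lost without replicate 1 of control vehicle (adjusted p = 0.114) or without replicate 1, 2 or 3 of Dicer KO vehicle (0.0799, 0.0531 and 0.0574). Asns was 5.06 ± 0.886 CPM in control and 5.32 ± 0.397 in Dicer KO.

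After 6 h of LPS, 8 of the 30 genes were higher in Dicer KO than in control and 13 were lower. Of all genes, 55.8% were called, 28.8% higher and 27.0% lower, and the medians were −0.04 for the 30 genes and −0.03 for all. With library totals, which shift the median gene by −0.35, 2 of the genes were higher and 21 lower. Groups did not overlap for 8 higher and 13 lower genes, beside 32% and 31.2% of all.

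Of the 15 chaperones, 3 were higher, 6 were lower and 6 were not called. Pdia4 was 36.8, 31.4 and 40.7 CPM in control and 23.9, 24.1 and 27.6 in Dicer KO. The groups did not overlap, and the difference was −0.53 ± 0.09 (adjusted p = 4.96e-05), where it had been 0.31 ± 0.07 at rest. Manf was 78.0, 72.8 and 70.9 CPM in control and 55.5, 53.2 and 55.0 in Dicer KO (−0.44 ± 0.06, adjusted p = 3.25e-06). However, 8.85% of its exon length is overlapped on the opposite strand, and exons of Rbm15b overlap it on its own strand. Hyou1 (−0.40 ± 0.06) and Sdf2l1 (−0.39 ± 0.12) were lower too, as were P4hb (−0.35 ± 0.06) and Dnajc3 (−0.31 ± 0.06), an inhibitor of PERK. Those 6 contrast with Pdia3 (0.35 ± 0.06), Dnajb11 (0.32 ± 0.06) and Hspa5 (0.27 ± 0.05), which were higher with TMM but stood at 0.0013, −0.04 and −0.08 with library totals and were then not called. Hspa5 was 1273, 1165 and 1237 CPM in control and 1428, 1490.0 and 1521 in Dicer KO. Calr (0.16 ± 0.07), Hsp90b1 (−0.13 ± 0.06), Canx, Pdia6, Dnajb9 and Creld2 were not called. Calr was called higher without replicate 3 of control vehicle (adjusted p = 0.0317), replicate 1 of control LPS (0.0484) or replicate 1 of Dicer KO LPS (0.0135), and lower with library totals (−0.19, adjusted p = 0.0226). Hsp90b1 was called lower without replicate 3 of Dicer KO LPS (0.0195).

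Herpud1 and Syvn1 kept their opposite directions. Herpud1 was 37.3, 40.6 and 37.5 CPM in control and 18.4, 17.6 and 21.8 in Dicer KO (2.00-fold lower, SE of the log2 difference 0.09, adjusted p = 2e-08). Syvn1 was 84.4, 83.4 and 83.9 CPM in control and 114, 120.4 and 126 in Dicer KO (0.52 ± 0.05, adjusted p = 6.65e-08). Neither pair of groups overlapped. Edem1 was higher by 0.33 ± 0.05 with TMM, against −0.02 with library totals, and Derl2 was lower (−0.24 ± 0.06). Derl1 was not called (0.02 ± 0.05). Sel1l was called lower by a small margin (−0.11 ± 0.05, adjusted p = 0.0433), a call lost without replicate 2 of control vehicle (0.0551), replicate 3 of control LPS (0.127), replicate 1 or 3 of Dicer KO vehicle (0.0515 and 0.056) or replicate 1 or 2 of Dicer KO LPS (0.129 and 0.0932), with DESeq2 (0.244), and with a replicate block (0.0526).

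Eif2ak3 was 15.3, 15.7 and 15.6 CPM in control and 7.14, 6.83 and 7.98 in Dicer KO. This 2.12-fold lower level (−1.08 ± 0.09, adjusted p = 1.77e-08) was the largest fall of the 30 genes in LPS, and 8.05% of the exon length of Eif2ak3 is overlapped on the opposite strand. Atf6 remained higher with TMM (0.35 ± 0.05) but not with library totals (−0.00425), and Ern1 was 26.8 ± 2.34 and 28.5 ± 1.21 CPM (0.09 ± 0.12, not called). Xbp1 was lower, with 222, 209.9 and 222 CPM in control and 173, 159 and 159.6 in Dicer KO (−0.41 ± 0.06, adjusted p = 1.56e-05). Ddit3 was higher by 0.47 ± 0.08, a difference that was 0.12 and not called with library totals (adjusted p = 0.204). Atf4 was 116 ± 10.4 and 116 ± 14.8 CPM and was not called.

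All 3 tested ATF4 and CHOP targets were called, in unlike directions. Ppp1r15a was 53.9, 57.8 and 48.7 CPM in control and 98.4, 96.8 and 97.5 in Dicer KO. It was 1.82-fold higher (0.87 ± 0.06, adjusted p = 8.28e-10), the largest rise of the 30 genes in LPS. Asns was lower by 0.83 on the log2 scale (−0.83 ± 0.15), with 7.93, 9.93 and 9.74 CPM in control and 4.73, 5.48 and 5.27 in Dicer KO, and Trib3 was lower as well (−0.98 ± 0.24).

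**Figure D2:**
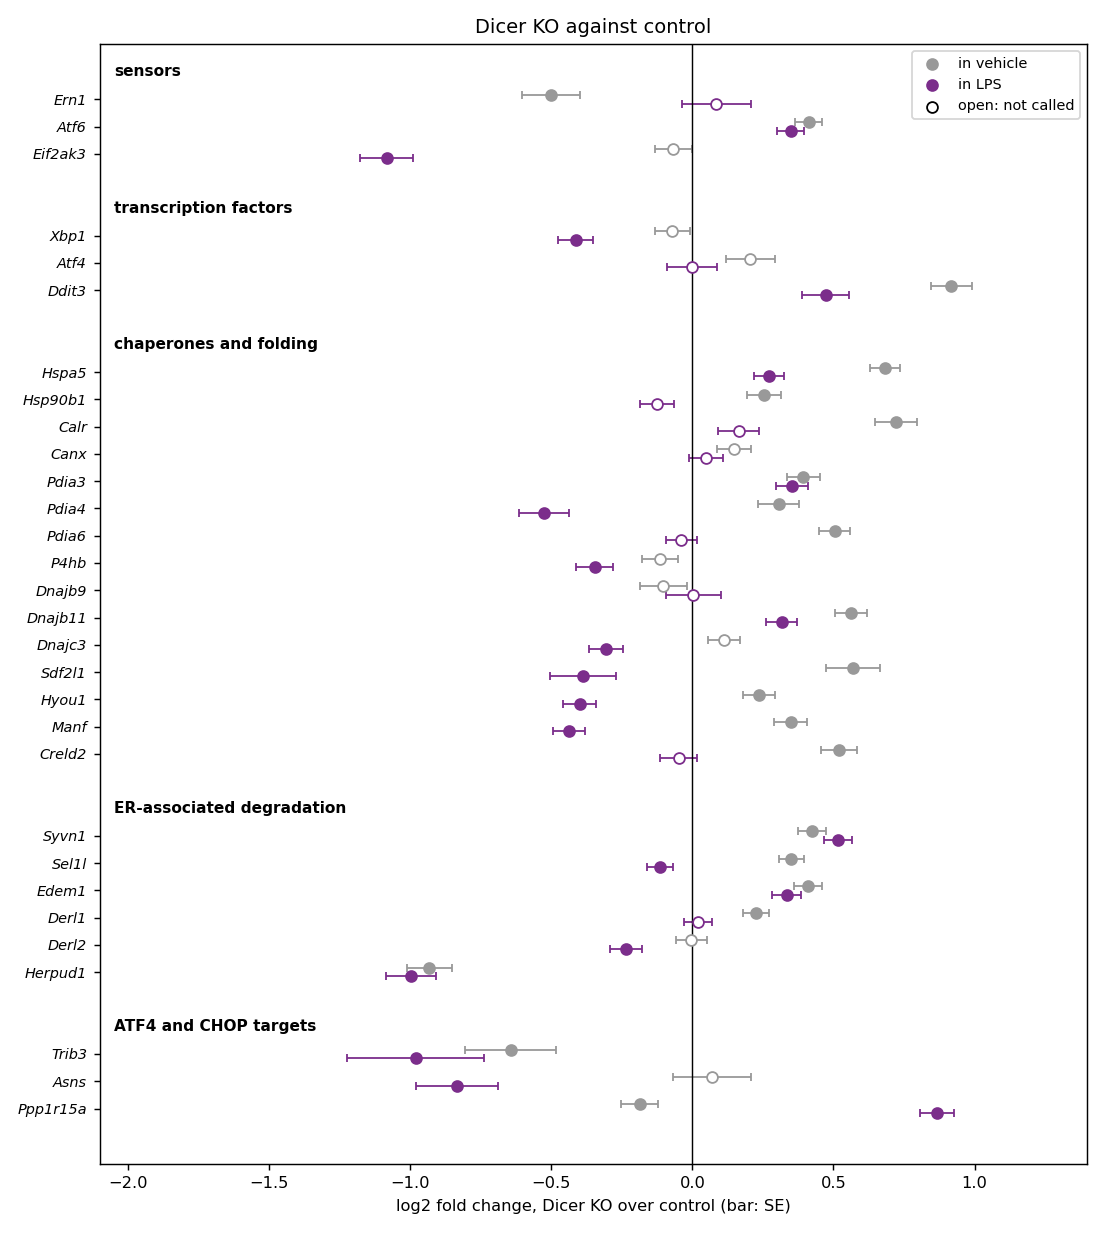
Log2 difference of Dicer KO over control for the 30 tested genes, by role, in vehicle (grey) and LPS (purple), with bars for the SE and open points for genes not called. Most chaperones lie to the right of 0 in vehicle, where the median is 0.35, and around 0 or to the left in LPS, where it is −0.05; with library totals the LPS differences of Hspa5, Dnajb11, Edem1 and Atf6 fall just below 0.

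Among the chaperones of control macrophages, LPS raised some and lowered others. Of the 30 genes, 14 were higher with LPS than with vehicle and 10 were lower, beside 38.0% and 41.1% of all genes (79.1% called in all), so the share of the genes called, 24 of 30, was near the background. Treatments did not overlap for 14 higher and 10 lower genes, beside 38.4% and 41.9% of all. The split was 12 higher and 15 lower with upper-quartile factors and 6 higher and 19 lower with library totals, which shift the median gene by −0.52. These vehicle libraries are also the controls of the genotype comparison at rest.

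Hspa5 and Manf rose most. Hspa5 went from 542 ± 14.9 to 1225 ± 54.6 CPM, a 2.26-fold rise (1.18 ± 0.05, adjusted p = 3.16e-13). Manf went from 34.2, 30.7 and 33.1 CPM to 78.0, 72.8 and 70.9 (1.18 ± 0.06, adjusted p = 6.55e-13). Neither overlapped between treatments. Dnajb11 rose by 0.98 ± 0.06, Pdia6 by 0.56 ± 0.05 and Creld2 by 0.49 ± 0.06. With library totals Pdia6 was at 0.04 and not called (adjusted p = 0.489), and Creld2 was at −0.03. Hsp90b1 (0.19 ± 0.06) and Calr (0.19 ± 0.07) were called higher with TMM and were negative with upper-quartile factors (both −0.03) and with library totals (−0.34 and −0.33). The Calr call was also lost without replicate 1 or 2 of control vehicle (adjusted p = 0.103 and 0.0987) or replicate 1 of control LPS (0.105).

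Falling chaperones were Dnajb9 (−0.70 ± 0.09), which went from 34, 32.4 and 27.1 CPM to 18.1, 18.6 and 20.8, and Pdia4 (−0.67 ± 0.08), which went from 55.4, 56.5 and 61.0 CPM to 36.8, 31.4 and 40.7. P4hb and Dnajc3 fell by 0.21 each on the log2 scale, and the P4hb call was lost without replicate 1 of control vehicle (adjusted p = 0.0555). Sdf2l1 (−0.18), Hyou1 (0.10), Pdia3 (0.02) and Canx (−0.01) were not called. Without replicate 2 of control vehicle, Sdf2l1 was called lower (adjusted p = 0.025).

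All 3 sensors fell, and Xbp1 rose. Ern1 went from 77.8, 72.4 and 55.4 CPM to 25.5, 29.5 and 25.5 (−1.35 ± 0.11), and Eif2ak3 from 36.3, 36.2 and 33.1 CPM to 15.3, 15.7 and 15.6 (−1.18 ± 0.07). Atf6 fell by 0.41 on the log2 scale, from 137 ± 5.02 to 103 ± 4.15 CPM. In each of the 3 genes every LPS library was below every vehicle library. Xbp1 went from 149 ± 13.1 to 218 ± 6.90 CPM (0.55 ± 0.06, adjusted p = 1.37e-07) and Atf4 from 75.9 ± 5.13 to 116 ± 10.4 (0.61 ± 0.09), but both stood near 0 and were not called with library totals (0.03 and 0.09). Ddit3 was lower (−0.24 ± 0.08, adjusted p = 0.0115), a call lost without replicate 3 of control vehicle (0.0701) or replicate 2 or 3 of control LPS (0.061 and 0.0661).

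Degradation genes that rose were Syvn1 (0.76 ± 0.05), Derl2 (0.58 ± 0.05, or 0.06 and not called with library totals) and Sel1l (0.37 ± 0.05, or −0.15 with library totals). Edem1 was lower (−0.22 ± 0.05). Herpud1 (−0.11 ± 0.08) and Derl1 (−0.10 ± 0.05) were not called, but were called lower without replicate 3 of control vehicle (Herpud1, adjusted p = 0.0303) or replicate 1 of control LPS (Derl1, 0.035). Ppp1r15a rose 2.03-fold, from 26.3 ± 1.29 to 53.5 ± 4.55 CPM, and Asns 1.82-fold, from 5.06 ± 0.886 to 9.20 ± 1.10 CPM. Trib3 fell by 0.89 on the log2 scale.

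In Dicer KO macrophages, LPS lowered more of the genes than it raised. Of the 30, 8 were higher and 15 lower, beside 37.4% and 42.7% of all genes (80.1% called in all). The share of the genes called, 23 of 30, was thus near the background, and with TMM more of all genes fell than rose as well. DESeq2 gave 8 higher and 14 lower, beside 39.2% and 38.6% of all genes. With upper-quartile factors the split was 5 and 21, and with library totals, which shift the median gene by −0.75, 1 and 26. Treatments did not overlap for 8 higher and 17 lower genes, beside 38.1% and 44.0% of all. The median of the 30 genes was −0.18 and that of all genes −0.10.

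Of the chaperones, 3 rose and 8 fell. Hspa5 went from 870.1 ± 12.3 to 1479.5 ± 47.4 CPM (0.77 ± 0.05, adjusted p = 1.7e-10), a rise that was 0.02 and not called with library totals. Dnajb11 rose by 0.73 ± 0.06 and Manf by 0.39 ± 0.06 with TMM, against −0.02 and −0.36 with library totals. Pdia4 went from 71.3, 73.8 and 68.7 CPM to 23.9, 24.1 and 27.6, a 2.83-fold fall without overlap (−1.50 ± 0.08, adjusted p = 4.7e-12). Sdf2l1 went from 34.9, 43.3 and 34.8 CPM to 15.9, 18.2 and 17.3, a 2.19-fold fall without overlap (−1.13 ± 0.11, adjusted p = 3.88e-08). Dnajc3 (−0.63), Dnajb9 (−0.60), Hyou1 (−0.54), P4hb (−0.44), Calr (−0.37) and Hsp90b1 (−0.19) fell as well, and the Hsp90b1 call was lost without replicate 1 of Dicer KO LPS (adjusted p = 0.0591). Creld2 (−0.08), Pdia6 (0.02), Pdia3 (−0.02) and Canx (−0.11) were not called, but Canx was called lower without replicate 3 of Dicer KO LPS (0.0338).

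Eif2ak3 fell 4.59-fold, from 35.4, 34.2 and 31.3 CPM to 7.14, 6.83 and 7.98 (−2.20 ± 0.08, adjusted p = 1.71e-14). Ppp1r15a rose 4.22-fold, from 22.8, 23.3 and 23.4 CPM to 98.4, 96.8 and 97.5 (2.08 ± 0.06, adjusted p = 4.88e-16). These were the largest fall and the largest rise of the 30 genes, in a kinase of eIF2 alpha and in the subunit that reverses its action. Ern1 (−0.77), Ddit3 (−0.68), Atf6 (−0.47) and Trib3 (−1.23) fell, and Edem1 and Derl1 fell by 0.30 each on the log2 scale. Syvn1 rose by 0.85 ± 0.05, against 0.10 and not called with library totals. Atf4 (0.41), Derl2 (0.35) and Xbp1 (0.21) rose with TMM and were negative with library totals (−0.34, −0.40 and −0.54). Asns was 5.32 ± 0.397 and 5.16 ± 0.386 CPM, and Sel1l (−0.09) and Herpud1 (−0.18) were not called, but Herpud1 was called lower without replicate 3 of control vehicle (adjusted p = 0.0497) or replicate 3 of Dicer KO LPS (0.014).

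**Figure D3:**
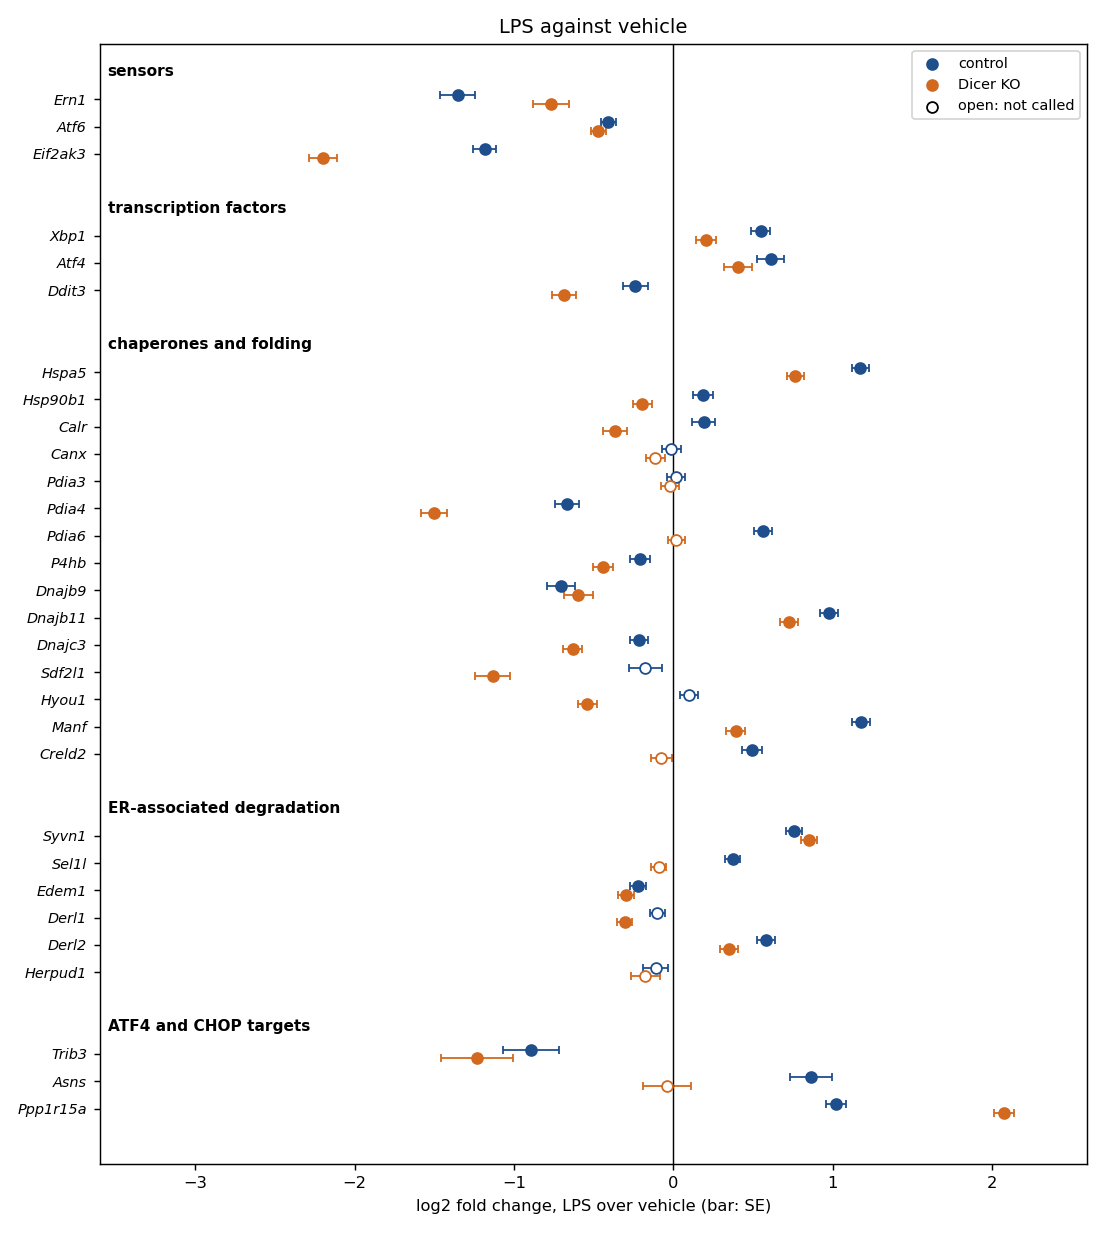
Log2 change of LPS over vehicle for the 30 tested genes, by role, in control (blue) and Dicer KO (orange), with bars for the SE and open points for genes not called. Eif2ak3 at −2.20 and Ppp1r15a at 2.08, both in Dicer KO, mark the ends of the range; with library totals the Dicer KO changes of Dnajb11, Manf, Derl2, Xbp1 and Atf4 fall below 0.

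The difference between the 2 LPS responses was tested directly with the interaction of genotype and treatment. It was called for 20 of the 30 genes, 18 with a lower and 2 with a higher response in Dicer KO. A lower response is a lower log2 change, whether a smaller rise, a deeper fall or a fall in place of a rise. Over all genes 33.7% were called, 18.8% lower and 14.9% higher, and the medians were −0.34 for the 30 genes and −0.04 for all. With library totals, which shift the median gene by −0.23 and call 37.1% of all genes lower, the split was 1 higher and 24 lower.

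Lower responses made up 11 of 15 chaperones, with none higher and a median of −0.42. The largest were Sdf2l1 (−0.96 ± 0.15, adjusted p = 0.000133), Pdia4 (−0.83 ± 0.11, adjusted p = 2.23e-05) and Manf (−0.79 ± 0.08, adjusted p = 1.16e-06). Hyou1 followed at −0.64 ± 0.08, with 79.4, 76.7 and 79.1 CPM in control vehicle, 80.8, 86.9 and 83.8 in control LPS, 88.3, 96.8 and 92.1 in Dicer KO vehicle, and 58.1, 64.1 and 68.4 in Dicer KO LPS. Hyou1 was thus highest in Dicer KO vehicle and lowest in Dicer KO LPS, with both control groups between and no overlap with either. Creld2 (−0.57), Calr (−0.56), Pdia6 (−0.54), Dnajc3 (−0.42), Hspa5 (−0.41), Hsp90b1 (−0.38) and Dnajb11 (−0.25) completed the 11. P4hb (−0.23 ± 0.09, adjusted p = 0.0568) was called only without replicate 1 of control vehicle (0.00913) or replicate 2 of Dicer KO vehicle (0.0499) among the sets that leave out 1 library. Canx (−0.10), Pdia3 (−0.04) and Dnajb9 (0.11) were not called.

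Of the degradation genes, Sel1l (−0.46 ± 0.06), Derl2 (−0.23 ± 0.08) and Derl1 (−0.20 ± 0.07) had the lower response. Syvn1 (0.09 ± 0.07), Edem1 (−0.07 ± 0.07) and Herpud1 (−0.06 ± 0.12) were not called. The calls of Dnajb11, Derl1 and Derl2 were lost under several settings. With DESeq2 their adjusted p was 0.0787, 0.1 and 0.13. Dnajb11 was not called without replicate 1 of control vehicle (adjusted p = 0.06) or 2 (0.0713), replicate 1 of control LPS (0.0512) or replicate 3 of Dicer KO vehicle (0.05), Derl1 without replicate 2 of control vehicle (0.0563), replicate 1 of control LPS (0.0503) or replicate 1 or 2 of Dicer KO LPS (0.0517 and 0.0518), and Derl2 without replicate 2 of control vehicle (0.0778), replicate 2 of control LPS (0.0512), replicate 2 of Dicer KO vehicle (0.0543) or replicate 1 of Dicer KO LPS (0.0773).

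Sensors and factors differed among themselves. The fall of Eif2ak3 was deeper in Dicer KO (−1.02 ± 0.11, adjusted p = 2.8e-06), that of Ern1 was shallower (0.59 ± 0.16, adjusted p = 0.0119, or 0.36 and not called with library totals), and that of Atf6 was not called as different (−0.06 ± 0.07). Xbp1 rose less in Dicer KO (−0.34 ± 0.09), the fall of Ddit3 was deeper there (−0.45 ± 0.11), and Atf4 was not called (−0.21 ± 0.12). In the targets, Ppp1r15a had the higher response (1.05 ± 0.09, adjusted p = 1.07e-07) and Asns the lower (−0.91 ± 0.20, adjusted p = 0.00189), while Trib3 was not called (−0.34 ± 0.29). Asns rose with LPS in control alone, so that its 3 Dicer KO LPS libraries, at 4.73, 5.48 and 5.27 CPM, lay in the range of the vehicle libraries of both genotypes, 4.36 to 6.06.

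**Figure D4:**
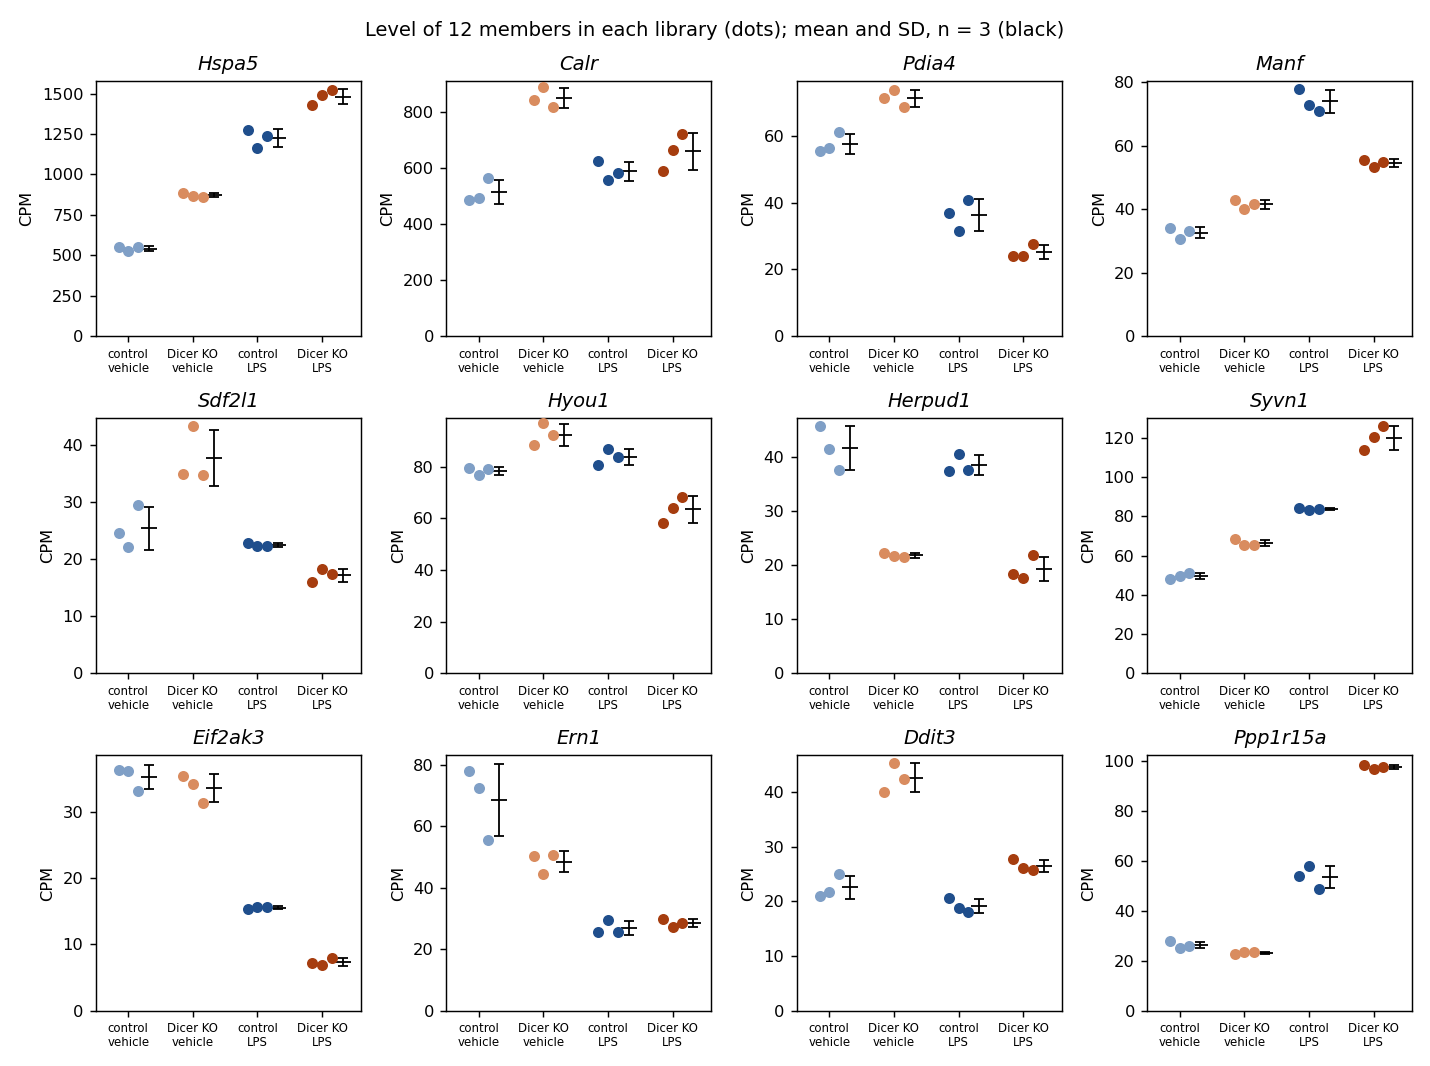
Level in CPM (vertical axis, from 0) of 12 of the genes in each of the 12 libraries, as dots by group, with the mean and SD of n = 3 in black. Calr, Sdf2l1, Hyou1 and Pdia4 are highest in Dicer KO vehicle, Hspa5, Syvn1 and Ppp1r15a are highest in Dicer KO LPS, and Herpud1 is lower in both Dicer KO groups than in both control groups.

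The genes with an ERSE or ERSE-II match differed in their calls. Of the 10 that were tested, Hspa5, Calr, Hsp90b1, Pdia6, Creld2, Syvn1 and Dnajb11 were higher in Dicer KO at rest, Canx and Dnajc3 were not called, and Herpud1 was lower. Of the 16 tested genes with a window and no such match, 6 were higher at rest (Pdia3, Pdia4, Sdf2l1, Edem1, Sel1l and Ddit3), 7 were not called, and Ern1, Trib3 and Ppp1r15a were lower. In LPS, 3 of the 10 were higher, 2 were lower and 5 were not called, and of the 16 the counts were 4, 9 and 3. Of the 4 genes with a CARE match, Herpud1 and Trib3 were lower in Dicer KO both at rest and in LPS. Asns was lower in LPS and not called at rest, and Chac1 did not pass the filter. Of all genes, 25.0% were higher and 21.2% lower at rest, and 28.8% and 27.0% in LPS. No test was made of these groupings, which rest on exact matches alone.

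Other genes of the pathway were taken from 5 lists, and their counts stand beside 25.0% higher and 21.2% lower of all genes at rest, 28.8% and 27.0% with LPS, and 14.9% and 18.8% in the interaction. In the ATF4 and CHOP programme, which covers amino acid synthesis and transport, transfer RNA charging and stress transcription factors, 35 of 37 genes were tested. At rest 15 were higher in Dicer KO and 5 lower (42.9% and 14.3%, median 0.23), and with LPS 9 were higher and 20 lower (25.7% and 57.1%, median −0.42). The interaction was lower for 21 (60.0%) and higher for 6. With library totals the counts were 8 and 8 at rest, 8 higher and 24 lower with LPS, and 23 lower and 4 higher in the interaction. Mthfd2, a mitochondrial folate enzyme, went from 8.62 ± 1.01 to 82.0 ± 4.66 CPM with LPS in control and from 10.6 ± 0.419 to 42.6 ± 2.08 in Dicer KO (interaction −1.24 ± 0.11, adjusted p = 2.7e-07). Eprs, a transfer RNA synthetase, went from 72.3 ± 1.68 to 56.4 ± 3.42 CPM in control and from 75.4 ± 3.15 to 28.8 ± 0.302 in Dicer KO (−1.03 ± 0.08, adjusted p = 4.62e-08). Jdp2, a transcription factor of the AP-1 family, moved the other way, from 3.40 ± 0.259 to 34.8 ± 1.47 CPM in control and from 3.6 ± 0.582 to 122 ± 3.39 in Dicer KO (1.72 ± 0.14, adjusted p = 7.12e-08). At rest the amino acid transporter subunit Slc3a2 (0.67 ± 0.05) and the CHOP-regulated death receptor Tnfrsf10b (1.10 ± 0.14) were among the 15 genes higher in Dicer KO. Against them stood the 5 lower genes, and log2 differences over the list at rest ranged from −1.606 to 1.315.

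In the list of translocon and processing genes, 25 of 26 were tested, and 5 were higher and 4 lower in Dicer KO at rest, against 6 higher and 10 lower with LPS. The shares called, 36.0% and 64.0%, compare with 46.2% and 55.8% of all genes, and with library totals the counts were 4 higher and 12 lower at rest and 1 and 20 with LPS. Rpn2, a subunit of the enzyme that attaches N-glycans, was higher in both (0.54 ± 0.05 and 0.60 ± 0.05), while the signal peptidase subunit Spcs3 was lower with LPS (−0.79 ± 0.05), from 85.1 ± 2.71 CPM in control to 49.1 ± 2.56. Of 20 tested among 23 other folding genes, 3 were higher and 6 lower at rest, and 4 higher and 8 lower with LPS, so that the shares called, 45% and 60.0%, were near those of all genes. With library totals 2 were higher and 7 lower at rest, and 1 higher and 17 lower with LPS. Erp29 was higher in both (0.59 ± 0.05 and 0.50 ± 0.06), and the disulfide isomerase Txndc5 was lower with LPS (−0.61 ± 0.06). The interaction was lower for 4 of the 20 and higher for 0 (20.0% and 0%), and lower for 13 with library totals.

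The 17 other degradation genes split into 8 higher and 2 lower at rest, and 9 higher and 0 lower with LPS, in Dicer KO. The shares called, 58.8% and 52.9%, compare with 46.2% and 55.8% of all genes. The direction with LPS rested on the scaling: the split was 5 higher and 4 lower with upper-quartile factors and 1 higher and 12 lower with library totals (6 and 3 at rest). Erlec1, a lectin that delivers glycoproteins for degradation, was higher by 0.44 ± 0.06 and 0.51 ± 0.07. Edem2 rose with LPS from 67.1 ± 4.51 to 112 ± 5.07 CPM in control and from 67.4 ± 1.54 to 144 ± 4.34 in Dicer KO. Of the 16 stress signalling genes, 9 were higher and 1 lower at rest, and 7 higher and 2 lower with LPS, 62.5% and 56.2% of the list. With library totals the splits were 5 higher and 1 lower, and 3 higher and 8 lower. Eif2ak2, the eIF2 alpha kinase PKR, was 57.4 ± 2.74 CPM in control vehicle, 166 ± 19.3 in Dicer KO vehicle, 300.1 ± 13.9 in control LPS and 527 ± 15.9 in Dicer KO LPS. Ppp1r15b, the constitutive counterpart of Ppp1r15a, was 94.7 ± 1.42, 143 ± 1.80, 607 ± 17.1 and 1087 ± 26.3 CPM in the same order. Both were thus higher in Dicer KO than in control with either treatment and higher with LPS in either genotype, with an interaction of −0.72 ± 0.10 for Eif2ak2.

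**Figure D5:**
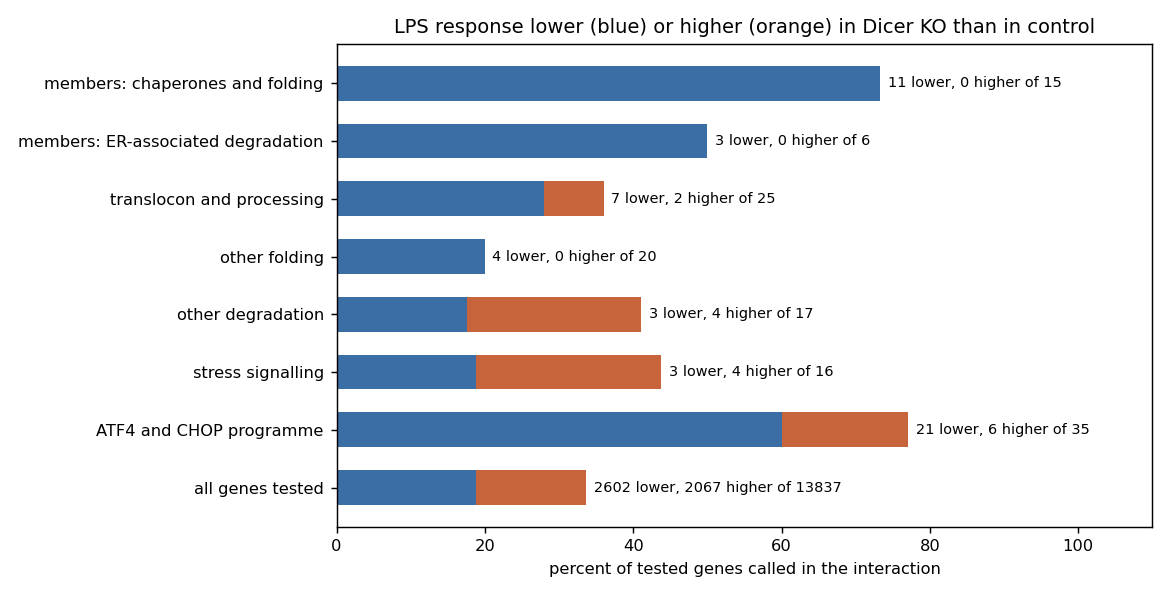
Share of tested genes (horizontal axis, percent) called in the interaction with a lower (blue) or higher (orange) LPS response in Dicer KO, for 2 of the role groups, the 5 other lists and all genes tested. The chaperones (11 of 15) and the ATF4 and CHOP programme (21 of 35) hold the highest shares with a lower response with TMM, and all genes 18.8%. With library totals the translocon and processing list (18 of 25) and the degradation members (4 of 6) passed the programme (23 of 35), and all genes stood at 37.1%.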

How the data were processed

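A stranded kit was used for the mRNA libraries, per the labels' protocols. STAR 2.5, DESeq2 (no version), mm10 and GRCm38.p5 are named in the submitters' processing notes. The authors deposited 1 file per library, with unnormalized counts of reads by Ensembl gene. How reads were counted, with which annotation and strand setting, is not given in the sources used here. Lines that name no gene were left out of library sizes: 45.8 to 46.8% of reads fell on no gene, 0.626 to 0.768% were ambiguous and 9.86 to 11.6% did not align uniquely. Of the gene identifiers, 45229 matched GENCODE M21, which gave symbols, GRCm38 coordinates and exon lengths.

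Counts were analysed with edgeR 4.0.16 (filterByExpr, TMM, robust quasi-likelihood fit of all 12 libraries, 1 mean per group). There were 5 two-sided tests per gene, with Benjamini-Hochberg adjustment over 13837 genes in each. The script was tested on simulated data. The genes and lists were chosen with earlier results of these data known. All 32 are accounted for, those with the largest change of their role are given by library, and up to 3 genes of each other list may be named by smallest p. There were 21 alternatives, among them DESeq2 1.42.0, other scalings, other filters, a replicate block and leaving out each library. A further list of marker genes is not reported here.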

Additional observations from a re-analysis of the deposited data

Results flagged for a closer look

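The LPS response differed between genotypes, by the test of the interaction itself, in 20 of the 30 tested genes. Values are log2 changes with LPS in Dicer KO minus those in control, and each of these was past an adjusted p of 0.05. A higher response in Dicer KO was found for Ppp1r15a (1.05) and Ern1 (0.59), the latter because its fall was shallower.

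Among chaperones and folding enzymes the response was lower for Sdf2l1 (−0.96), Pdia4 (−0.83), Manf (−0.79), Hyou1 (−0.64), Creld2 (−0.57), Calr (−0.56), Pdia6 (−0.54), Dnajc3 (−0.42), Hspa5 (−0.41), Hsp90b1 (−0.38) and Dnajb11 (−0.25). Among degradation genes it was lower for Sel1l (−0.46), Derl2 (−0.23) and Derl1 (−0.20). The sensor Eif2ak3 (−1.02), the factors Ddit3 (−0.45) and Xbp1 (−0.34) and the ATF4 target Asns (−0.91) also had the lower response. Over all genes 33.7% were called in this test. Dicer KO vehicle libraries enter both this difference and the genotype difference at rest.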

How the results depend on the processing

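Under the 21 alternatives the number of genes called stayed within 1.5 times the count given above in each of the 5 comparisons, at 20 to 25 (genotype at rest), 20 to 25 (genotype in LPS), 22 to 28 (LPS in control), 22 to 27 (LPS in Dicer KO) and 17 to 25 (interaction). Without 1 library the ranges were 20 to 25, 20 to 22, 22 to 24, 22 to 25 and 17 to 20. Without both libraries that stood apart, the genes called higher and lower were 17 and 5, 9 and 14, 14 and 10, 8 and 15, and 2 and 17. Of 3120 single values recomputed, 2950 stayed on the same side of the threshold, of which 60, called in neither fit, changed sign; 61 lost and 83 gained a call, and 26 called in at least 1 fit reversed. Those 26 reversals came from scaling, while 34 of the 60 sign changes came under other alternatives. With library totals the genotype difference in LPS became −0.080 for Hspa5, −0.19 for Calr, −0.31 for Canx, −0.35 for Dnajb9, −0.037 for Dnajb11, −0.018 for Edem1, −0.33 for Derl1 and −0.00425 for Atf6. The LPS change in control became −0.34 for Hsp90b1, −0.33 for Calr, −0.51 for Pdia3, −0.42 for Hyou1, −0.027 for Creld2 and −0.15 for Sel1l. The LPS change in Dicer KO became −0.73 for Pdia6, −0.019 for Dnajb11, −0.36 for Manf, −0.40 for Derl2, −0.54 for Xbp1 and −0.34 for Atf4. With upper-quartile factors Derl1 became −0.12 in the genotype difference in LPS, Hsp90b1 −0.032, Calr −0.029 and Pdia3 −0.20 in the LPS change in control, and Pdia6 −0.24 and Xbp1 −0.056 in that in Dicer KO. These factors rescale whole libraries, which TMM sets from 0.707 to 1.31 of their totals, and counts cannot say which scale matches RNA per cell. Replicate numbers are shared between groups. Of 18 same-numbered pairs, 4 correlated above 0.1 (range −0.232 to 0.182), while differently numbered pairs ranged from −0.317 to 0.342. With 3 libraries per group, these correlations cannot show whether a number marks a shared animal or day. With a replicate block the counts were 22, 20, 24, 23 and 20: Sel1l was no longer called in LPS (adjusted p = 0.0526) and Atf4 was called at rest (0.0486).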
